A study of Homo sapiens with 18 samples.

Results

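Genes of the INK4 locus and the G1 cyclin axis were examined: the inhibitors CDKN2A and CDKN2B, their neighbour MTAP, the kinases CDK4 and CDK6, the cyclins CCND1, CCND3 and CCNE1, the pocket protein RB1 and the factor E2F1. They are 10 of the 36576 genes in the expression table, and they were chosen by name with measured values of these data known: the levels of CDKN2A and CDKN2B in all groups and the fall of CCNE1 under BPQD. For those values a description is given and no test. The samples, labelled as A549 (a line from a human lung adenocarcinoma), were exposed for 24 h to 10 mg/L BPQD (black phosphorus quantum dots), exposed for 24 h to 100 mg/L TiO2 (titanium dioxide), or left untreated as the control. Every group was sequenced as 3 input libraries, which give the expression values, and as 3 libraries immunoprecipitated for N6-methyladenosine (m6A), a methyl mark inside mRNA, which enter the authors' deposited tables of differential peaks. The series asks whether RNA methylation in these cells changed after exposure to nanomaterials. The doses of BPQD and TiO2 differed, so a difference between the materials is one between the exposures as given, and nothing in the labels says that the 3 libraries of a group came from separate cultures, so p-values measure the spread between these libraries, which may be technical.

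In G1, D-type cyclins bind CDK4 and CDK6, and cyclin E binds CDK2, and these kinases phosphorylate the retinoblastoma protein RB1, which releases E2F factors to transcribe genes of S phase. The INK4 proteins p16, made from CDKN2A, and p15, made from CDKN2B, bind CDK4 and CDK6 and keep D-type cyclins off them, while ARF, another product of CDKN2A, read in another frame, stabilises p53. A549 is known for a homozygous deletion of CDKN2A, a loss that in many tumours takes CDKN2B and MTAP with it.

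The promoters of the locus and of E2F1 are shown because the peaks described below lie over the starts of CDKN2A and CDKN2B, and because E2F1 is the member whose mRNA passed the test as lower under both materials. Each sequence is the 100 bases before the first transcribed base, 5′ to 3′ on the minus strand, from RefSeq (GRCh38.p14). Capitals mark GC boxes, GGGCGG on either strand, in the INK4 promoters. In the E2F1 promoter they mark the E2F letters searched, TTTCGCGC, TTTGGCGC, TTTCCCGC or TTTGCCGC on either strand.
CDKN2A, upstream start (the ARF side), chr9:21995325-21995424: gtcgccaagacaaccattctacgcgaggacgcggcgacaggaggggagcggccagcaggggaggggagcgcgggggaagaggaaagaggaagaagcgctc
CDKN2A, start of p16, chr9:21974858-21974957: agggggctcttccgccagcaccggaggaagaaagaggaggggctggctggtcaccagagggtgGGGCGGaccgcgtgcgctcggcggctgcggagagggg
CDKN2B, chr9:22009306-22009405: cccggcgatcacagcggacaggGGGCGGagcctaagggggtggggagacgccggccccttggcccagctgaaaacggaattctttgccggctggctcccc
E2F1, chr20:33686386-33686485: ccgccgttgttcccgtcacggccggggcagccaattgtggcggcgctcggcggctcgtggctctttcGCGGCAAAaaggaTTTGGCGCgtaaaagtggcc
The p16 promoter lies inside the 5′ peak listed for CDKN2A in each of the authors' deposited tables, and the upstream CDKN2A promoter and that of CDKN2B lie inside the widest CDKN2B peak of the BPQD table. These intervals are up to 19303 bases wide and can run across introns. Lying within their limits does not place m6A signal on the promoter sequences. The RefSeq table holds 13 promoters of 9 members, all but CCND1. The E2F letters were found in 1 of the 13, that of E2F1, which holds 2 matches, beginning at -33 and -20 from its start. The letters occur in 3.32% of the 35097 promoters of the same 300 bases. GC boxes were found in 9 of the 13 and occur in 44.9% of all. The RB1 window of that table is set on a start at 48476450, inside the gene, so the upstream start of RB1 was not searched. A match of letters is a description of the window and not a binding site.

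The cells carried the label A549, and their genotype was not analysed here. Keratins were abundant: KRT18 averaged 407 FPKM under BPQD, 479 under TiO2 and 581 in control. The surfactant gene SFTPB and the lung factor NKX2-1 reached at most 0.0336 and 0.0970 FPKM in any library, and ALDH1A1 and AKR1C2, abundant in A549, reached at most 0.116 and 0.139. In all, 8 of 19 measured A549 and lung epithelial markers stayed below 1 FPKM in all 9 libraries. The summed level of all 19 was 946 to 973 FPKM under BPQD, 1051 to 1147 under TiO2 and 1272 to 1355 in control. KRT8 averaged 237 FPKM under BPQD, 265 under TiO2 and 324 in control, and KRT7 averaged 212, 253 and 297. Together with KRT18 they made up most of that sum. All 5 leukocyte markers stayed below 1 FPKM, with sums up to 0.647 under BPQD, 0.620 under TiO2 and 0.804 in control. The fibroblast sum was 4.43 to 5.15 FPKM under BPQD, 4.46 to 5.04 under TiO2 and 7.70 to 8.14 in control, and the endothelial sum 1.19 to 1.35, 2.15 to 3.92 and 3.02 to 3.66. The part of these shifts in the results below was not tested.

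All 10 genes were expressed in every library, CDKN2A included, which goes against the deletion known for A549. CDKN2A (ENSG00000147889, chromosome 9, 21967753 to 21995301, minus strand) had 19.3, 19.9 and 19.3 FPKM (fragments per kilobase of transcript, scaled to the mapped fragments of the library) under BPQD, 21.6, 20.5 and 20.6 under TiO2, and 22.7, 22.4 and 27.4 in control. The groups did not overlap, and the third control library was the highest of the 9. Its mean level lay at the 84.9th percentile of the 12224 tested genes, whose means over the libraries were 1 FPKM or more. The mean was 19.5 ± 0.380 FPKM under BPQD, 20.9 ± 0.591 under TiO2 and 24.2 ± 2.77 in control (SD, n = 3 each). The log2 fold change was -0.29 ± 0.07 for BPQD against control and -0.20 ± 0.07 for TiO2 against control (SE; fold changes are on the log2(FPKM + 1) scale, which understates the change of low genes). Without control replicate 3 these were -0.20 for BPQD and -0.11 for TiO2. In bulk RNA, fewer cells that express a gene and less of its RNA per cell cannot be told apart.

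CDKN2B (chromosome 9, 22002903 to 22009305, minus strand) was lower under BPQD than under TiO2 or in control. It had 7.58, 7.12 and 7.61 FPKM under BPQD, 10.3, 9.80 and 9.75 under TiO2, and 10.7, 10.6 and 10.9 in control. The BPQD libraries lay apart from the other 6, and the TiO2 libraries lay just under those of control. The mean of 7.44 ± 0.273 FPKM under BPQD stood against 9.94 ± 0.276 under TiO2 and 10.7 ± 0.188 in control, with log2 fold changes of -0.48 ± 0.03 for BPQD and -0.10 ± 0.03 for TiO2 against control. CDKN2A and CDKN2B are paralogs that can share reads, and CDKN2B-AS1 lies antisense across CDKN2B and the start of CDKN2A. Whether the counting used strand is not given in the sources used here, so reads of the sense and antisense genes cannot be told apart. CDKN2B-AS1 had 0.743, 0.819 and 0.918 FPKM under BPQD, 0.451, 0.435 and 0.445 under TiO2, and 0.495, 0.584 and 0.586 in control, so it was highest where CDKN2B was lowest, and at a mean under 1 FPKM it was outside the set of tested genes. The divergent transcript CDKN2A-DT averaged 0.225 FPKM under BPQD, 0.309 under TiO2 and 0.403 in control, also too low to be tested.

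MTAP (chromosome 9, 21802543 to 21937651, plus strand), the phosphorylase that returns methylthioadenosine to methionine, was the lowest of the 10 genes in every group. It had 1.36, 1.32 and 1.20 FPKM under BPQD, 1.79, 1.40 and 3.85 under TiO2, and 1.86, 1.63 and 1.57 in control. The BPQD libraries did not overlap those of control, and the third TiO2 library stood apart from the other 8. MTAP did not pass the test under BPQD (log2 fold change -0.23 ± 0.23, adjusted p = 0.461 by limma with Benjamini-Hochberg adjustment over all 12224 genes) or TiO2 (0.25 ± 0.23, adjusted p = 0.434 by limma), nor for BPQD against TiO2 (-0.48 ± 0.23, adjusted p = 0.144 by limma). Without TiO2 replicate 2 the last of these passed (adjusted p = 0.0482 by limma). The groups share 1 estimate of the spread, and without TiO2 replicate 3 MTAP passed for BPQD against control with a log2 fold change of -0.23 and adjusted p = 0.0467 by limma, and its value for TiO2 against control was -0.05.

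Outside the 3 genes of the locus that belong to the set, 20 of 23 listed 9p21 neighbours were in the table and 8 were tested. Under BPQD 3 rose and 2 fell, and under TiO2 2 rose and none fell. Under TiO2, 1 fell without BPQD replicate 3 and with only the 6 libraries compared. With no filter on low values 6 rose and 1 fell under BPQD. Over the other alternatives 0 to 2 fell under BPQD, with 1 under each other scaling and under the replicate block. The list median was 0.14 for BPQD and 0.09 for TiO2, against -0.01 and -0.02 over all tested genes. Of all tested genes 20.6% rose and 23.4% fell under BPQD, and 17.3% rose and 20.5% fell under TiO2. KLHL9, a cullin adaptor of mitosis, rose under BPQD (0.37 ± 0.04) and TiO2 (0.20 ± 0.04), as did PLAA (0.26 ± 0.03 and 0.25 ± 0.03), and FOCAD rose under BPQD (0.17 ± 0.04). The noncoding MIR31HG had 0.674, 0.956 and 0.702 FPKM under BPQD, 1.44, 1.33 and 1.20 under TiO2, and 1.36, 1.41 and 1.43 in control, and fell under BPQD (-0.44 ± 0.07, adjusted p = 0.00176 by limma). TUSC1 was called lower under BPQD (-0.22 ± 0.08, adjusted p = 0.0461 by limma), a call lost in 13 of 16 alternatives (adjusted p up to 0.131). These were TPM, median centring, quantile normalization, no filter on low values, the replicate block, the 6 libraries alone, and leaving out BPQD replicate 3, any TiO2 replicate or any control replicate. Among the neighbours too low to be tested, IFNE, an interferon of epithelia, had 1.84, 1.75 and 1.73 FPKM under BPQD, 0.358, 0.383 and 0.396 under TiO2, and 0.657, 0.745 and 0.418 in control. The BPQD libraries of IFNE lay above all others, and those of HACD4, which averaged 0.410 FPKM under BPQD, 0.156 under TiO2 and 0.214 in control, did too. The tested MLLT3, CAAP1 and IFT74 did not pass in any comparison. DMRTA1 averaged 0.468 FPKM under BPQD, 0.606 under TiO2 and 0.451 in control, and ELAVL2 and TEK reached at most 0.0310 and 0.0409 in any library. The other interferon genes of the cluster reached at most 0.0707 FPKM.

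**Figure D1:**
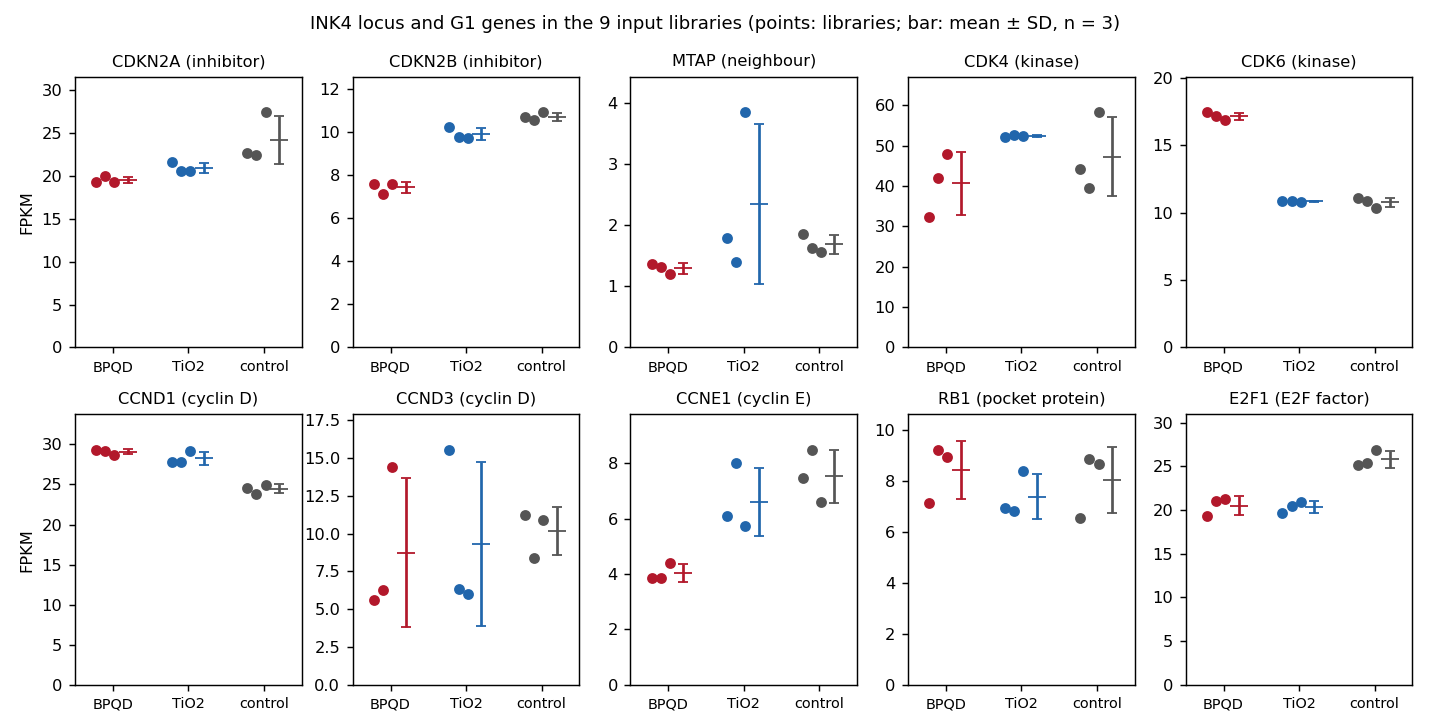
FPKM of the 10 genes in the 9 input libraries; points are libraries, the bar beside them is the mean ± SD (n = 3), each panel has its own scale from 0. CDK6 stood at 16.9 to 17.4 FPKM under BPQD and at 10.4 to 11.1 in the other 6 libraries, while single libraries set the spread of MTAP and CCND3.

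CDK6 (chromosome 7, 92604921 to 92836594, minus strand), a catalytic partner of D-type cyclins and a target of p16 and p15, rose under BPQD and not under TiO2. It had 17.4, 17.1 and 16.9 FPKM under BPQD, 10.9, 10.9 and 10.8 under TiO2, and 11.1, 10.8 and 10.4 in control. The BPQD libraries stood far from the other 6, which overlapped each other. The mean of 17.2 ± 0.270 FPKM under BPQD was 1.60 times the control mean of 10.8 ± 0.356 (log2 fold change 0.63 ± 0.03, adjusted p = 6.88e-06 by limma). Under TiO2 the log2 fold change was 0.01 ± 0.03 (adjusted p = 0.798 by limma), and BPQD against TiO2 gave 0.62 ± 0.03 (adjusted p = 6.29e-06 by limma). CDK6 was called in both comparisons under all 17 alternatives, with values of 0.60 to 0.68 for BPQD against control.

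CDK4 (chromosome 12, 57747727 to 57756013, minus strand), the other kinase of D-type cyclins, was the most abundant of the 10 genes in every group and did not pass the test in any comparison. It had 32.3, 41.9 and 47.9 FPKM under BPQD, 52.1, 52.8 and 52.4 under TiO2, and 44.1, 39.5 and 58.3 in control. The BPQD libraries lay below those of TiO2, and the control libraries overlapped both groups. The log2 fold change was -0.21 ± 0.17 for BPQD (adjusted p = 0.347 by limma), 0.16 ± 0.17 for TiO2 (adjusted p = 0.485 by limma) and -0.37 ± 0.17 for BPQD against TiO2 (adjusted p = 0.119 by limma). The SD between control libraries was 9.77 FPKM, more than the distance of either material's mean (40.7 FPKM for BPQD, 52.4 for TiO2) from the control mean of 47.3.

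CCND1 (chromosome 11, 69641087 to 69654474, plus strand), cyclin D1, rose under both materials. It had 29.3, 29.1 and 28.7 FPKM under BPQD, 27.8, 27.8 and 29.2 under TiO2, and 24.6, 23.8 and 24.9 in control. Every exposed library lay above every control library. The log2 fold change was 0.24 ± 0.03 for BPQD (adjusted p = 0.000372 by limma) and 0.20 ± 0.03 for TiO2 (adjusted p = 0.00117 by limma), and 0.04 ± 0.03 between BPQD and TiO2 (adjusted p = 0.309 by limma). These comparisons share the control libraries.

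CCND3 (chromosome 6, 41934933 to 42050357, minus strand), cyclin D3, had 5.59, 6.24 and 14.4 FPKM under BPQD, 15.5, 6.33 and 5.99 under TiO2, and 11.2, 8.37 and 10.9 in control. The third BPQD library and the first TiO2 library were each more than 8 FPKM above the others of their group, and all groups overlapped. Neither BPQD (-0.30 ± 0.42, adjusted p = 0.598 by limma) nor TiO2 (-0.23 ± 0.42, adjusted p = 0.704 by limma) passed the test. Cyclin D2, CCND2, the third D-type cyclin, reached at most 0.0245 FPKM.

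CCNE1 (chromosome 19, 29811991 to 29824312, plus strand), cyclin E1, had 3.86, 3.85 and 4.41 FPKM under BPQD, 6.09, 8.01 and 5.74 under TiO2, and 7.47, 8.48 and 6.61 in control. The BPQD libraries lay below the other 6, and the TiO2 and control libraries overlapped. Its mean of 4.04 ± 0.324 FPKM under BPQD was 46.3% below the control mean of 7.52 ± 0.939, a log2 fold change of -0.75 ± 0.12. For TiO2, with a mean of 6.61 ± 1.23 FPKM, the log2 fold change of -0.17 ± 0.12 did not pass (adjusted p = 0.326 by limma). CCNE2, cyclin E2, which was not among the 10, had 5.38, 5.47 and 5.62 FPKM under BPQD, 6.78, 7.73 and 6.50 under TiO2, and 7.47, 7.03 and 7.50 in control, and fell under BPQD (-0.36 ± 0.06, adjusted p = 0.00171 by limma). Their shared kinase CDK2 had a log2 fold change of -0.03 ± 0.03 under BPQD and -0.03 ± 0.03 under TiO2.

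RB1 (chromosome 13, 48303726 to 48599436, plus strand) had 7.14, 9.22 and 8.91 FPKM under BPQD, 6.92, 6.81 and 8.40 under TiO2, and 6.52, 8.87 and 8.64 in control. All 3 groups overlapped. Its log2 fold change was 0.07 ± 0.13 under BPQD (adjusted p = 0.715 by limma) and -0.10 ± 0.13 under TiO2 (adjusted p = 0.604 by limma).

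E2F1 (chromosome 20, 33675477 to 33686385, minus strand), the factor held by RB1, fell under both materials. It had 19.3, 21.01 and 21.3 FPKM under BPQD, 19.6, 20.5 and 20.98 under TiO2, and 25.1, 25.4 and 26.9 in control. Every exposed library lay below every control library, and the BPQD and TiO2 libraries overlapped. The log2 fold change was -0.32 ± 0.05 for BPQD (adjusted p = 0.00100 by limma), -0.33 ± 0.05 for TiO2 (adjusted p = 0.00117 by limma) and 0.01 ± 0.05 between BPQD and TiO2 (adjusted p = 0.897 by limma).

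Of the 7 members tested for BPQD against control, CDK6 and CCND1 rose, E2F1 fell and 4 did not pass, where 20.6% of the 12224 tested genes rose and 23.4% fell. Of the 8 tested for TiO2, CCND1 rose, E2F1 fell and 6 did not pass, where 17.3% rose and 20.5% fell. Of the 7 tested for BPQD against TiO2, CDK6 was higher and 6 did not pass, where 19.0% of genes were higher and 18.6% lower. The members' counts are near these shares. Among called genes the share that rose was 46.9% for BPQD, and 58.4% with FPKM rescaled to TPM, and for BPQD against TiO2 it was 50.5% and 60.6%, while the median over all genes moved by less than 0.1 under each scaling. The calls of CDK6, CCND1 and E2F1 were kept under all 17 alternatives.

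**Figure D2:**
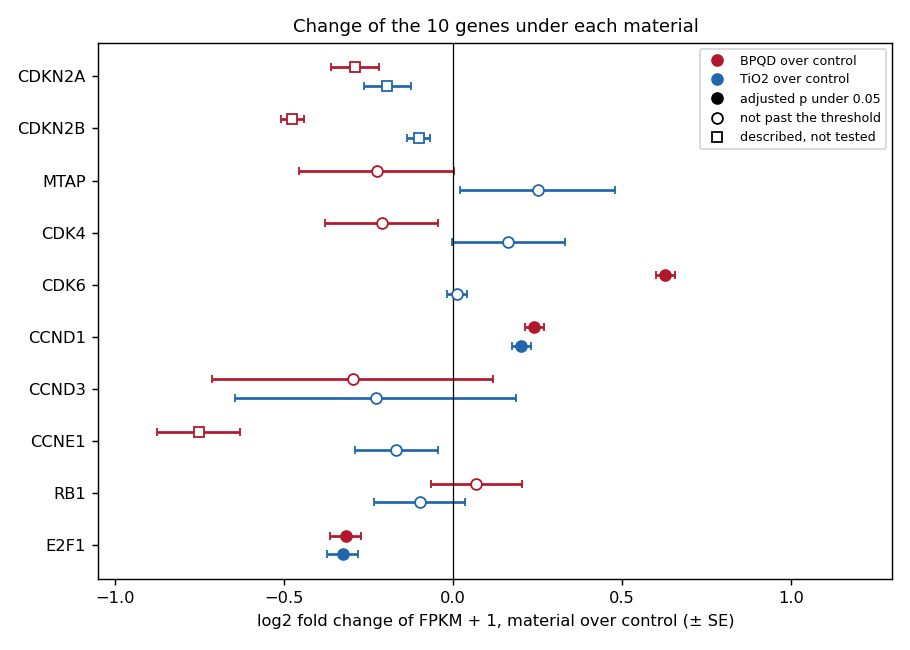
Log2 fold change of FPKM + 1 (± SE) of the 10 genes for BPQD and TiO2 against control; filled circles passed at adjusted p under 0.05, open circles did not, and squares are values given as a description. CDK6 at 0.63 under BPQD and 0.01 under TiO2 is set apart from CCND1 and E2F1, which lie on the same side of 0 under both materials.

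By level, CDK4 was the highest and MTAP the lowest of the 10 in each group, on the FPKM scale, which is per length. Under BPQD the means ran CDK4, CCND1, E2F1, CDKN2A, CDK6, CCND3, RB1, CDKN2B, CCNE1 and MTAP. The libraries of E2F1 and CDKN2A overlapped there, as did those of neighbours from CCND3 to CDKN2B. Under TiO2 CDKN2A stood just above E2F1, again with overlap, and CDKN2B, CCND3, RB1 and CCNE1 overlapped in turn. In control E2F1 came second, above CCND1 and CDKN2A, which overlapped, and CDK6, CDKN2B, CCND3, RB1 and CCNE1 formed a run of overlapping neighbours. CDK6 was therefore above CDKN2B in every library under BPQD and under TiO2, and overlapped it in control.

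Most of the other CDK inhibitors were lower in the exposed cells. Of 5 INK4 and CIP/KIP genes tested, none rose under either material, 4 fell under BPQD and 3 under TiO2. Their median log2 fold change was -0.53 under BPQD and -0.22 under TiO2, against -0.01 and -0.02 over all tested genes. Among all tested genes 20.6% rose and 23.4% fell under BPQD, and 17.3% rose and 20.5% fell under TiO2. CDKN1C, which makes p57, had 7.24, 7.82 and 7.65 FPKM under BPQD, 13.0, 13.6 and 13.4 under TiO2, and 16.1, 15.4 and 15.5 in control. It fell by 0.96 ± 0.03 under BPQD and by 0.22 ± 0.03 under TiO2 on the log2 scale, with no overlap between groups. CDKN2C, the INK4 gene of p18, had 16.4, 17.6 and 16.9 FPKM under BPQD, 18.8, 18.8 and 18.4 under TiO2, and 24.2, 26.2 and 24.7 in control. It fell under BPQD (-0.53 ± 0.04, adjusted p = 3.52e-05 by limma) and TiO2 (-0.40 ± 0.04, adjusted p = 0.000165 by limma). CDKN1A, the p21 gene and a target of p53, fell under both as well (-0.74 ± 0.02 and -0.27 ± 0.02), and CDKN2D, the gene of p19, fell under BPQD (-0.36 ± 0.08). CDKN1B, the p27 gene, had log2 fold changes of 0.01 ± 0.04 and 0.04 ± 0.04 and did not pass. Between BPQD and TiO2, CDKN1C (-0.74 ± 0.03), CDKN1A (-0.47 ± 0.02) and CDKN2C (-0.13 ± 0.04) were lower under BPQD.

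Downstream, 20 E2F target genes of S phase were tested. Under BPQD 9 rose and 4 fell (median 0.11), and under TiO2 6 rose and 8 fell (median -0.11). Over all tested genes 20.6% rose and 23.4% fell under BPQD, and 17.3% rose and 20.5% fell under TiO2. The helicase subunit MCM6 rose under both (0.41 ± 0.02 and 0.24 ± 0.02). The thymidine kinase TK1 fell under both (-0.56 ± 0.06 and -0.39 ± 0.06), as did the factor MYBL2 (-0.36 ± 0.02 and -0.43 ± 0.02). RRM2, a subunit of ribonucleotide reductase, was called lower under BPQD (-0.72 ± 0.22, adjusted p = 0.0284 by limma), with 12.2, 13.8 and 12.3 FPKM under BPQD and 14.3, 25.3 and 28.03 in control. That call was lost with no filter, with only the 6 libraries compared, and without any BPQD replicate or control replicate 2 or 3 (adjusted p up to 0.0891). With no filter on low values or without control replicate 2, 5 rather than 8 targets fell under TiO2. Set directly against each other, 10 targets were higher under BPQD than under TiO2 and none was lower (median 0.10, against 0.00 over all tested genes). Across alternatives 9 to 13 were higher and at most 1 lower (1 with only the 6 libraries compared and without control replicate 1 or 2). In that comparison 19.0% of all tested genes were higher and 18.6% lower. Among those 10 were the licensing factor CDT1 (0.42 ± 0.04) and the helicase subunits MCM7 (0.35 ± 0.02) and MCM2 (0.31 ± 0.06). Against control, CDT1 and MCM2 fell under TiO2 (-0.41 ± 0.04 and -0.21 ± 0.06) and did not pass under BPQD (0.01 ± 0.04 and 0.10 ± 0.06). MCM7 rose under BPQD (0.14 ± 0.02) and fell under TiO2 (-0.21 ± 0.02). E2F1 itself did not pass for BPQD against TiO2.

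Among 11 other pocket proteins, E2F and DP factors, 2 rose and 2 fell under BPQD (median -0.07), and 1 rose and 2 fell under TiO2 (median -0.06). Without BPQD replicate 1 or 3, 1 rose under BPQD. The shares of all tested genes that rose and fell were 20.6% and 23.4% under BPQD, and 17.3% and 20.5% under TiO2. RBL1, the pocket protein p107, had 10.4, 10.4 and 10.2 FPKM under BPQD, 7.43, 7.50 and 7.67 under TiO2, and 8.06, 8.10 and 7.47 in control, and rose under BPQD (0.35 ± 0.03, adjusted p = 0.000156 by limma). E2F2, an activator like E2F1, had 7.78, 7.99 and 8.69 FPKM under BPQD, 6.08, 5.51 and 5.44 under TiO2, and 8.52, 9.27 and 9.13 in control, and fell under TiO2 (-0.58 ± 0.06, adjusted p = 0.000191 by limma). The repressor E2F7 fell under both materials (-0.17 ± 0.03 and -0.22 ± 0.03). Calls of TFDP2 under BPQD (-0.14 ± 0.05) and E2F5 under TiO2 (0.18 ± 0.06) were each lost under several alternatives. That of TFDP2 was lost under TPM, median centring, quantile normalization and no filter on low values, and without any BPQD replicate or control replicate 1 or 2 (adjusted p up to 0.108). That of E2F5 was lost under the replicate block, with only the 6 libraries compared and with no filter, and without any BPQD or TiO2 replicate or control replicate 1 or 2 (adjusted p up to 0.129). Of 6 other G1 cyclins, kinases and activators tested, CCNE2 fell under BPQD and none rose (1 rose under TPM and without control replicate 3). Under TiO2 CDK7 rose (0.23 ± 0.06) and none fell (2 rose with only the 6 libraries compared and without BPQD replicate 3). The CDK7 call was lost with no filter on low values and without TiO2 replicate 1 or 2 or control replicate 1 or 2 (adjusted p up to 0.0727).

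Of 9 genes that turn over G1 cyclins and inhibitors, 2 rose and 2 fell under BPQD, and 1 rose and 1 fell under TiO2. Shares over all tested genes were 20.6% higher and 23.4% lower under BPQD, and 17.3% higher and 20.5% lower under TiO2. The scaffold CUL1 rose under both (0.27 ± 0.02 and 0.22 ± 0.02), and FBXO31, an F-box protein that directs cyclin D1 to degradation, fell under both (-0.14 ± 0.03 and -0.20 ± 0.03). AMBRA1, which also directs D-type cyclins to degradation, was called higher under BPQD (0.19 ± 0.06). That call was lost with no filter, with only the 6 libraries compared, and without BPQD replicate 1 or 2, TiO2 replicate 3 or control replicate 1 or 3 (adjusted p up to 0.124), and that of RBX1 (-0.18 ± 0.05) under TPM, with no filter and without BPQD replicate 1 or 2 or control replicate 1 or 2 (adjusted p up to 0.0851).

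Of 8 Polycomb genes tested, regulators that silence the INK4 locus, 2 rose and 1 fell under each material. Without control replicate 3, 2 fell under each, as they did under TiO2 without BPQD replicate 3. For this list and the next, the shares over all tested genes were 20.6% higher and 23.4% lower under BPQD. Under TiO2 they were 17.3% and 20.5%. EZH2 (0.14 ± 0.03) and SUZ12 (0.17 ± 0.04) rose under BPQD, BMI1 rose under TiO2 (0.27 ± 0.05), and CBX8 fell under both (-0.21 ± 0.04 and -0.25 ± 0.04). EED was called higher under TiO2 (0.11 ± 0.03), a call lost under the replicate block, with only the 6 libraries compared, with no filter, and without BPQD replicate 1 or 3, TiO2 replicate 2 or 3 or control replicate 2 or 3 (adjusted p up to 0.107). Of 9 genes of methionine salvage and of the polyamine and methyl-donor steps around MTAP, 2 rose and 2 fell under BPQD, and 2 rose and 1 fell under TiO2. ENOPH1 rose under both (0.49 ± 0.03 and 0.46 ± 0.03), and ADI1, the next enzyme in the pathway, had 6.62, 6.27 and 6.31 FPKM under BPQD, 9.46, 9.41 and 9.68 under TiO2, and 10.0, 10.0 and 9.69 in control. ADI1 fell under BPQD (-0.56 ± 0.03, adjusted p = 1.26e-05 by limma). SMS rose under TiO2 (0.30 ± 0.07), MAT2A rose under BPQD (0.26 ± 0.05), and MRI1 fell under both (-0.14 ± 0.03 and -0.26 ± 0.03). The MRI1 call under BPQD was lost under TPM (adjusted p = 0.0694 by limma).

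**Figure D3:**
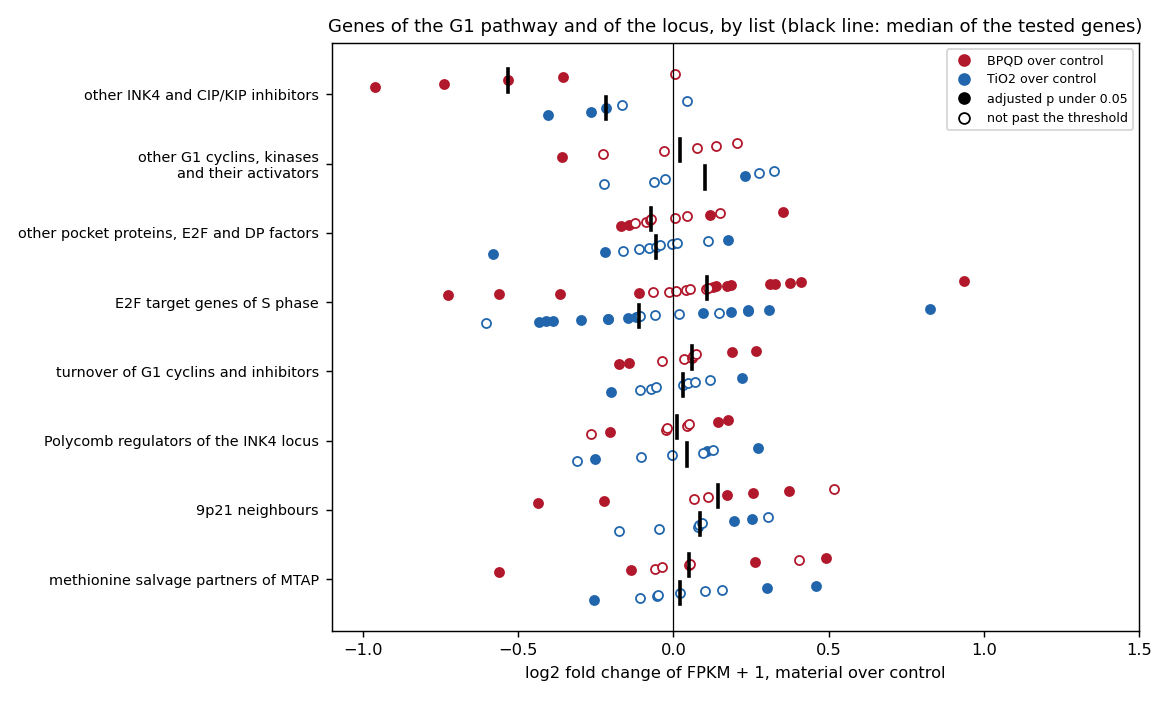
Log2 fold change of FPKM + 1 of the tested genes of 8 lists for BPQD and TiO2 against control; filled points passed at adjusted p under 0.05 and black lines are list medians. The medians of the inhibitor list lie below 0, at -0.53 for BPQD and -0.22 for TiO2, with CDKN1B just above 0, and the E2F targets spread to both sides.

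m6A was read from the authors' deposited tables, which list, for each material against control, peaks with a log2 fold change of enrichment and a p-value. The authors' deposited table for BPQD holds 12 peaks of the 10 genes among 14903, of which 6 were higher and 5 lower at p under 0.05, where 37.7% of all peaks were higher and 27.1% lower. The authors' deposited table for TiO2 holds 14 among 12891, of which 1 was higher and 8 lower, where 40.3% were higher and 23.8% lower. RB1, CCND3 and CCNE1 have no peak in either table. Of the members' peaks in the authors' deposited tables, 8 of 12 (66.7%) under BPQD and 8 of 14 (57.1%) under TiO2 overlap a peak of the same gene in the other table by at least 1 base. Over all peaks of the authors' deposited tables, 49.6% of those for BPQD and 57.3% of those for TiO2 overlap a peak of the other table. The tables share the control libraries, give no value per library and no strand, and an interval can run across introns.

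CDKN2A had lower peaks in both of the authors' deposited tables. At its 3′ UTR (chromosome 9, 21968022 to 21968171) the authors' deposited table for BPQD gives -0.157 (p = 0.000170), and that for TiO2 gives -0.158 (p = 0.00251) for 21968022 to 21968111. At the 5′ side, over 21974629 to 21993931, which holds the p16 promoter printed above, the authors' deposited table for BPQD gives -0.482 (p = 6.31e-10), and that for TiO2 gives -0.160 (p = 0.0158) for nearly the same interval. The authors' deposited table for TiO2 adds a peak at 21994478 to 21995301, at the upstream end of CDKN2A and over CDKN2B-AS1, at -0.506 (p = 0.00603).

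CDKN2B had higher peaks. Over 22004902 to 22009305, at its 5′ side, the authors' deposited table for BPQD gives 0.202 (p = 5.25e-08), and that for TiO2 gives 0.232 (p = 3.98e-12) for 22004932 to 22009305. A wider interval, 21994598 to 22012913, is listed for CDKN2B in the authors' deposited table for BPQD at 0.572 (p = 1.26e-06). It is 18316 bases wide and covers parts of 5 genes, among them CDKN2A and CDKN2B-AS1, and it overlaps the lower TiO2 peak at the upstream end of CDKN2A. To which of these transcripts it belongs cannot be told apart. Both 5′ intervals of CDKN2B also overlap CDKN2B-AS1. The mean input level of CDKN2B-AS1 was 0.827 FPKM under BPQD, 0.443 under TiO2 and 0.555 in control, so it was higher than control under BPQD and lower under TiO2. Its part in these peaks was not tested.

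**Figure D4:**
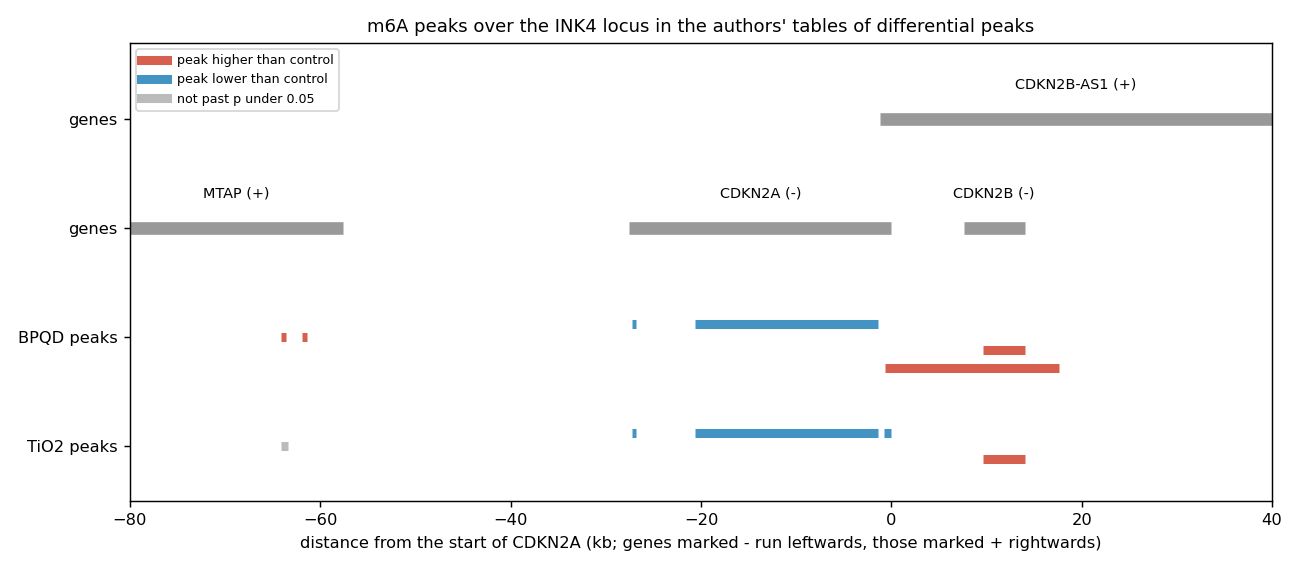
Peaks of CDKN2A, CDKN2B and the 3′ end of MTAP in the authors' deposited tables, by distance from the start of CDKN2A in kb; red peaks were higher and blue peaks lower than control at p under 0.05, grey peaks did not pass, and grey bars on top are genes. Blue intervals lie over CDKN2A and red ones over CDKN2B, and the wide red BPQD interval reaches across the start of CDKN2A.

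MTAP had the largest values. In the authors' deposited table for BPQD its 3 peaks were higher, at 0.456 (21859388 to 21859537, p = 0.0182, authors' FDR 0.0832), 1.13 (21931150 to 21931600, p = 7.76e-05) and 2.66 (21933427 to 21933517, p = 0.00427). Of its 5 peaks in the authors' deposited table for TiO2, 1 was lower, at -0.250 (21865236 to 21865835, p = 0.00145), and the other 4, at 0.380 to 2.13, did not pass. The input level behind these values was at most 1.36 FPKM under BPQD, 3.85 under TiO2 and 1.86 in control.

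Among the kinases, CDK6 had a peak in its 3′ UTR (chromosome 7, 92614932 to 92615262) that was higher in the authors' deposited table for BPQD (0.381, p = 0.000263) and none in that for TiO2. CDK6 mRNA in the input libraries was also higher under BPQD. CDK4 had a lower peak over its start (chromosome 12, 57752113 to 57752380) in the authors' deposited table for BPQD (-0.473, p = 0.00170). Its 1 peak in the authors' deposited table for TiO2 lay elsewhere, at 57755222 to 57755282, and did not pass (0.880, p = 0.145). That interval also overlaps MARCH9.

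CCND1 had lower peaks in both tables. At its 3′ end (chromosome 11, 69654204 to 69654474) the authors' deposited table gives -0.343 for BPQD (p = 1e-05) and -0.287 for TiO2 (p = 7.24e-05). An overlapping interval, 69654213 to 69656702, has -0.360 for BPQD and -0.318 for TiO2 in the authors' deposited tables, so these are not independent values, and both intervals are listed as also overlapping LTO1. Another peak in the 3′ UTR, 69653076 to 69653166, is listed in the authors' deposited table for BPQD at -0.501 and did not pass (p = 0.0603). At the 5′ UTR of CCND1 the authors' deposited table for TiO2 adds -0.288 (69641117 to 69641267, p = 0.0309, authors' FDR 0.136). The mRNA of CCND1 was higher under both materials. E2F1 had 1 peak, in its 3′ UTR (chromosome 20, 33676612 to 33677126), lower in the authors' deposited table for TiO2 (-0.138, p = 0.0145, authors' FDR 0.0794). Of all peaks for TiO2, 88.7% had a larger absolute change.

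**Figure D5:**
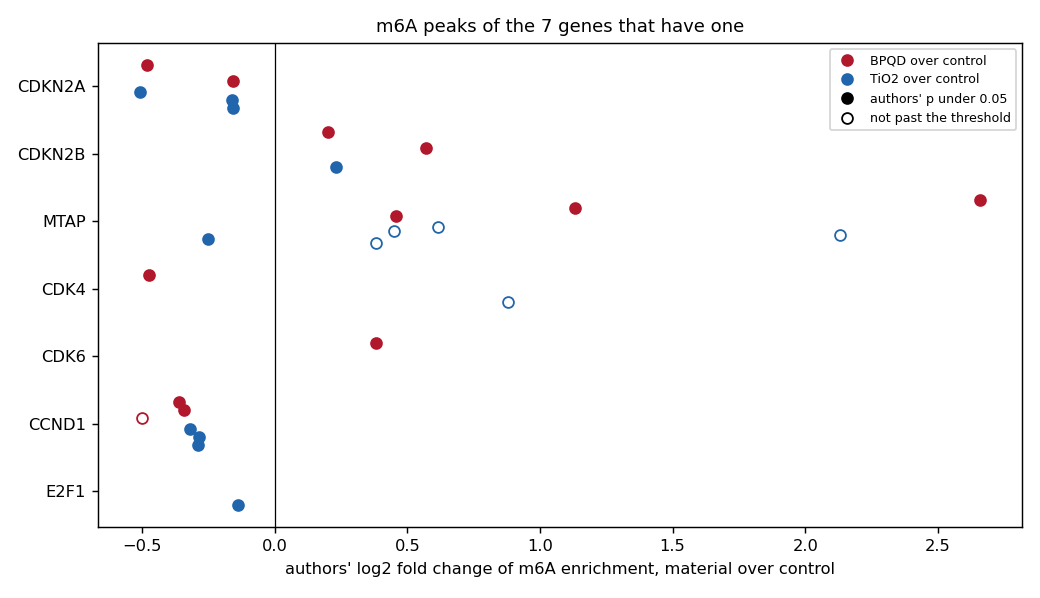
Log2 fold change of m6A enrichment of each peak of the 7 genes that have one, from the authors' deposited tables, for BPQD and TiO2 against control; filled points passed at p under 0.05. CDKN2A and CCND1 peaks lie below 0 and CDKN2B peaks above it under both materials, and MTAP peaks reach 2.66.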

How the data were processed

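Values of 9 input libraries were read from the expression table the authors deposited, which per the file headers holds FPKM for 36576 genes. The submitters' processing notes name HISAT2 and StringTie 1.3.0 and list mm10. The gene IDs are human, however: of 24557 symbols found in RefSeq GRCh38.p14 100% lay on the same chromosome and 97.9% had a start or end within 1000 bases, so coordinates are read as GRCh38. Read counts are not given. Lower FPKM steps put library depth within 1.42 times of the shallowest, so no interval from counting is given. Libraries correlated at 0.980 to 0.983 within groups and 0.966 to 0.975 between them.

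The 12224 genes averaging 1 FPKM or more were tested on the log2(FPKM + 1) scale with limma 3.58.1 (R 4.3.3), with a trend in the variance. All 9 libraries entered each fit, tests were two-sided, and p was adjusted by Benjamini-Hochberg over all tested genes (threshold 0.05). Same-numbered libraries of different groups did not deviate together (correlations of -0.08 to 0.07), so no pairing was used. The fit was tested on simulated data.

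The peak tables the authors deposited hold, per the file headers, the log2 fold change of enrichment, its p-value and an FDR as log10, which is treated as a score. The peak caller the authors used is not given in the sources used here. Peaks were taken by the gene the authors named. A further 12 columns of per-sample values were not used. Promoters came from RefSeq, and tables and plots from Python 3.11.15 with pandas 2.3.3, numpy 2.4.6 and matplotlib 3.10.9.

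The members and lists were chosen with earlier results of these data known. All 10 members are named, with up to 5 called genes of each list with the largest change in either exposure, the 9p21 neighbours found in the table, all peaks of the members, and the 3 genes whose pattern is most like that of CDKN2A, CDKN2B or CCNE1. A gene that meets this rule is not reported here. CDKN1B, CDK2, CCND2, CBX7 and genes that differed between the materials were named after their values were seen. Also tried were another pseudocount, other filters, scalings and peak thresholds, fits on 6 libraries or with a replicate block, and leaving out each library.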

Additional observations from a re-analysis of the deposited data

Results flagged for a closer look

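CDK6 is given here because its response to the materials differed in a test of the difference itself. It had 17.4, 17.1 and 16.9 FPKM under BPQD, 10.9, 10.9 and 10.8 under TiO2, and 11.1, 10.8 and 10.4 in control. BPQD against TiO2 gave a log2 fold change of 0.62 ± 0.03 (adjusted p = 6.29e-06 by limma), higher in 3 of 3 BPQD libraries, and 0.61 to 0.66 over 17 alternatives.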

How the results depend on the processing

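Across 17 alternatives the calls of CDK6, CCND1 and E2F1 against control kept their direction and their side of the threshold. For BPQD against TiO2, 1 member was called, and 2 without TiO2 replicate 2, when MTAP passed as well. MTAP could not be tested under a minimum mean of 5 FPKM, and for BPQD against control it passed with only the 6 libraries compared (adjusted p = 0.0308 by limma) and without TiO2 replicate 3. Log2 fold changes of members that were not called changed sign when single libraries were left out. RB1, BPQD vs control, ranged from -0.057 to 0.17, MTAP, TiO2 vs control, from -0.052 to 0.45, and CDK6, TiO2 vs control, from -0.013 to 0.030. For BPQD vs TiO2, CCND3 ranged from -0.45 to 0.33 and E2F1 from -0.016 to 0.051. The replicate block called 3, 2 and 1 members for BPQD, TiO2 and BPQD against TiO2, as without it. It called 4996, 4160 and 4150 genes against 5384, 4614 and 4596. Under it TUSC1 for BPQD and E2F5 and EED for TiO2 lost their calls. BPQD replicate 2 deviated most like replicate 2 of control and of TiO2, and TiO2 replicate 1 most like replicate 1 of control. In the other cases the closest library had another number. With that minimum, 3495, 3171 and 2832 of 6504 genes were called. At the authors' p under 0.01 or FDR under 0.05, 10 rather than 11 peaks passed under BPQD and 6 rather than 9 under TiO2. The peaks lost were MTAP at 0.456 under BPQD, and CDKN2A at -0.160, CCND1 at -0.288 and E2F1 at -0.138 under TiO2. With all peaks over a member's span, 13 passed under BPQD and 10 under TiO2 at p under 0.05. Of 816 list counts under alternatives, 113 moved. The cause was not tested.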

Other observations

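The genes whose log2(FPKM + 1) followed the members chosen for their pattern most closely over the 9 libraries were SEC14L1, YJU2 and TMBIM4 for CDKN2A (r = 0.974, 0.962 and 0.961). For CDKN2B they were FGD5-AS1, SDC3 and EDN1 (r = 0.996, 0.996 and 0.993), and for CCNE1 they were MED28, PGPEP1 and RFLNB (r = 0.983, 0.973 and 0.962). The points are 9 libraries in 3 groups, so these values describe a shared pattern over groups.

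Peaks named for other genes lie inside the spans of members. In MTAP, the authors' deposited table for BPQD lists AL359922 at 0.450 (chromosome 9, 21859382 to 21862570) and 1.99 (21892188 to 21893857), and that for TiO2 lists AL359922 at 0.290 (21859412 to 21862570). In RB1, the authors' deposited table for BPQD lists LPAR6 at 0.826 (chromosome 13, 48413084 to 48424020, p = 0.166). With no strand in the tables, these signals cannot be told apart from those of MTAP and RB1.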
